A study of Homo sapiens with 3 samples.

Results

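The short arm of chromosome 9 (9p) carries CDKN2A, a tumour suppressor locus that is often deleted in cancers. Its H3K27ac and TEAD regions were described here in 786-O cells. The members were all peaks on chromosome 9 that ended at or before position 47300000 of the hg19 build, which gave 782 H3K27ac regions of 52667 in all and 493 TEAD regions of 35241 in all. They make up 1275 of the 87908 regions of both lists. The long arm (9q, starts from 65000000) served as the comparison, with 1766 H3K27ac and 1223 TEAD regions. The span from 21000000 to 23000000 around CDKN2A held 49 H3K27ac and 33 TEAD regions.

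The study profiled 786-O, a human clear cell renal carcinoma line that is known to lack functional VHL. It comprised 3 chromatin libraries from unperturbed cells of this line, made with an antibody against H3K27ac, with an antibody against TEAD and from input. No genotype, treatment or time differed between them. The title of the series describes YAP as acting on a complex formed by TEAD and NF-κB. Each antibody had 1 library, so no value below has a replicate check, and no p-value is given. The labels name TEAD without a family member, while the names of the peaks in the TEAD list contain TEF1 and TEF3, older names of members of the family. Markers of the cell type were not checked, since no expression was measured and no region is assigned to a gene.

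H3K27ac is acetylation of lysine 27 on histone H3 and marks active promoters and enhancers. TEAD proteins are the DNA-binding partners of YAP and TAZ, the co-activators that the Hippo kinases hold out of the nucleus, and they bind mostly at distal enhancers. CDKN2A encodes, from separate first exons, the INK4A protein, an inhibitor of the cyclin D-dependent kinases, and ARF, which stabilises p53. Its neighbour CDKN2B encodes a related kinase inhibitor. In the RefSeq gene order (GRCh38.p14 assembly) the 16 interferon genes of the type I cluster come first. They are followed by MTAP, an enzyme of the methionine salvage pathway, then CDKN2A and CDKN2B, then DMRTA1, a gene of the DMRT transcription factor family. No other protein-coding gene lies between MTAP and DMRTA1 in that order than these 2 kinase inhibitor genes.

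The promoters of CDKN2A and CDKN2B are shown because both genes are known, as background, to lie in the part of the span where neither list had a region (described below). Each sequence is the 250 bases before a start site in RefSeq, read 5′ to 3′ on the minus strand of GRCh38.p14. That build differs from the build of the peaks, so its positions cannot be set against theirs. The first CDKN2A entry is at chr9:21974858-21975107, the second at chr9:21995325-21995574 and the CDKN2B entry at chr9:22009306-22009555.
CDKN2A, first start: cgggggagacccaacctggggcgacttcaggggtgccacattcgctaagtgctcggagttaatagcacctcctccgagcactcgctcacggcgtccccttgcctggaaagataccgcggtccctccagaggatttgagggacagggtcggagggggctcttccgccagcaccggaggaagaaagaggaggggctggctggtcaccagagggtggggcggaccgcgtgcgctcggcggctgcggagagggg
CDKN2A, second start: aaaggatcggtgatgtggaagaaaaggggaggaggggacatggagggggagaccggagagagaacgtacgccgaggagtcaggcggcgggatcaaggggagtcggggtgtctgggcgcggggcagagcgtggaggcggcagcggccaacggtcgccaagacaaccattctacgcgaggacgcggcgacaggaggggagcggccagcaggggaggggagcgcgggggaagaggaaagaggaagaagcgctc
CDKN2B: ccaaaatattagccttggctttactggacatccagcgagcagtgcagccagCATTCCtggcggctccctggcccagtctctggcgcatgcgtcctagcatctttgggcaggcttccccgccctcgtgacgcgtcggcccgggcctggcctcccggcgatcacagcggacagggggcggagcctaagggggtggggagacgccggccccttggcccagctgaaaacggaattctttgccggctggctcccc
Capitals mark a match to GGAATG, the core bound by TEAD proteins, searched on both strands; here it reads CATTCC, the same motif on the opposite strand. CDKN2B had 1 such match, and both CDKN2A entries had none. The AP-1 motif TGANTCA, also searched on both strands and not containing the first motif, had no match in any of the 3. Neither motif was found in the promoters of MTAP and DMRTA1. Among 34788 RefSeq promoters of the same length, 11.9% held GGAATG and 6.59% held TGANTCA, so a match or its lack in one promoter is a description of its letters only. Sequences under the peaks are not printed, because no hg19 genome was used here, and for the same reason no region below is assigned to a gene.

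The span around CDKN2A held regions on both sides of an empty stretch in its middle. The span was also empty from chr9:22449158 to its end. It held 49 H3K27ac and 33 TEAD regions, against a median of 29 and 20 over the 1497 windows of 2 Mb into which the chromosomes were divided. Of these windows, 1375 held a region of either list. The empty ones, which can include centromeres, are counted in the medians and in the shares that follow. As many H3K27ac regions stood in 28.7% of the windows and as many TEAD regions in 28.3%, so the count of the span is above the median and not rare. Along 9p the median of 23 windows was 22 H3K27ac and 16 TEAD regions, and 6 windows, the span included, reached its count in each list. On 9q the median of 38 windows was 46 and 29, and 18 and 17 windows reached the count of the span.

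**Figure D1:**
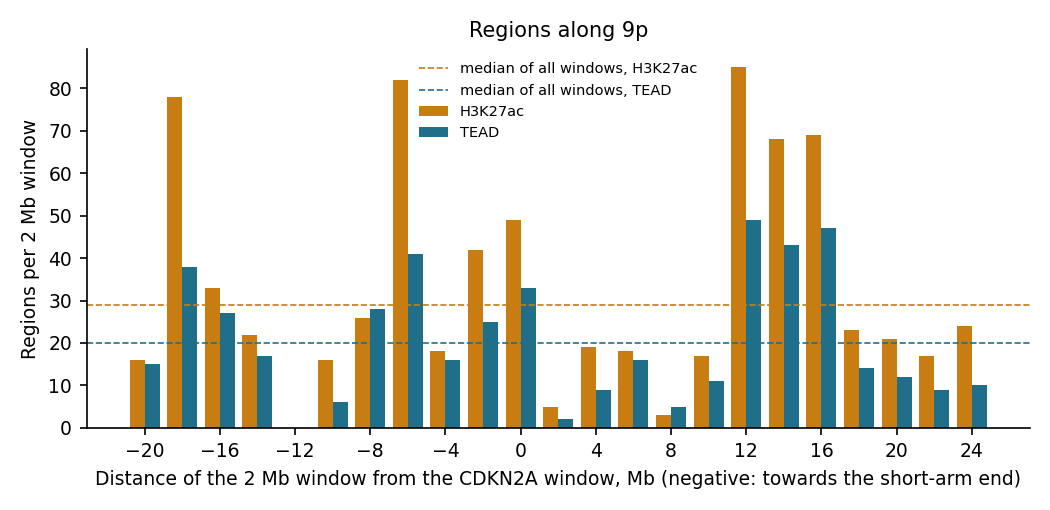
H3K27ac and TEAD regions per 2 Mb window (bars) along 9p, by distance in Mb from the window around CDKN2A, with the medians over all windows as dashed lines. The CDKN2A window stands at 49 and 33 regions, above both medians, while the window next to it on the centromere side holds 5 and 2.

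Regions were spread unevenly along the arm. The fullest window, from 33 to 35 Mb, held 85 H3K27ac and 49 TEAD regions, followed by 15 to 17 Mb with 82 and 41 and by 3 to 5 Mb with 78 and 38. One window, from 9 to 11 Mb, held none of either. In bins of 1 Mb, 5 of 47 were empty, and the 5 fullest held 267 of the H3K27ac regions (34.1%). The plot of regions per window shows 5 windows above the CDKN2A window in both lists, with 68 to 85 H3K27ac regions.

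Within the span, no region of either list was found from chr9:21919851-22136840, a stretch of 217 kb. The H3K27ac list alone was empty for 334 kb, from chr9:21874407-22208420. This stretch was singled out after its values were seen, for its place in the middle of the span. CDKN2A and CDKN2B are known to lie in it in hg19. Of the 61801 stretches between neighbouring regions of either list, 2249 were at least as long (3.64%), which puts it at that rank. On 9p, 53 of 906 stretches were at least as long (5.85%), and on 9q 60 of 2098 (2.86%). These shares count stretches and not bases, and most stretches were short, with a median of 7.54 kb on 9p and 8.65 kb on 9q. They do not give how often a fixed position such as a gene falls in a stretch this long, which would be more often. A second stretch of the span, chr9:21092577-21334579, was longer at 242 kb and ranked 1964. A peak list shows only where reads were enriched. Sequence missing from the cells and sequence present without the mark give the same empty stretch and cannot be told apart here, and DNA copy number was not measured.

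The empty stretch was bordered by 2 TEAD regions that overlapped no H3K27ac region. On the side of the short-arm end, chr9:21919581-21919850 reached 4.90-fold over the local background (95% interval 2.88 to 7.88, from 15 reads at the summit). On the centromere side, chr9:22136841-22137193 reached 10.9-fold (7.13 to 15.98, 24 reads). Its local background was 1.30 reads, the lowest value in the TEAD list, against 2.26 reads for the other. Fold is the authors' value at the summit of each peak, and the read numbers were recovered from their fold and p-value. These intervals cover the counting error of the reads at the summit alone, with the background taken as fixed.

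The nearest H3K27ac regions on either side both carried TEAD. Towards the short-arm end, chr9:21872788-21874406 reached 6.22-fold and held a TEAD region of 9.33-fold. Towards the centromere, chr9:22208421-22213226 was 4806 bp wide, reached 17.0-fold and held TEAD regions of 9.10-fold and 16.5-fold. The side with the higher H3K27ac fold was thus the centromere side, with intervals of 3.87 to 9.54 and 12.8 to 22.2 that did not overlap.

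**Figure D2:**
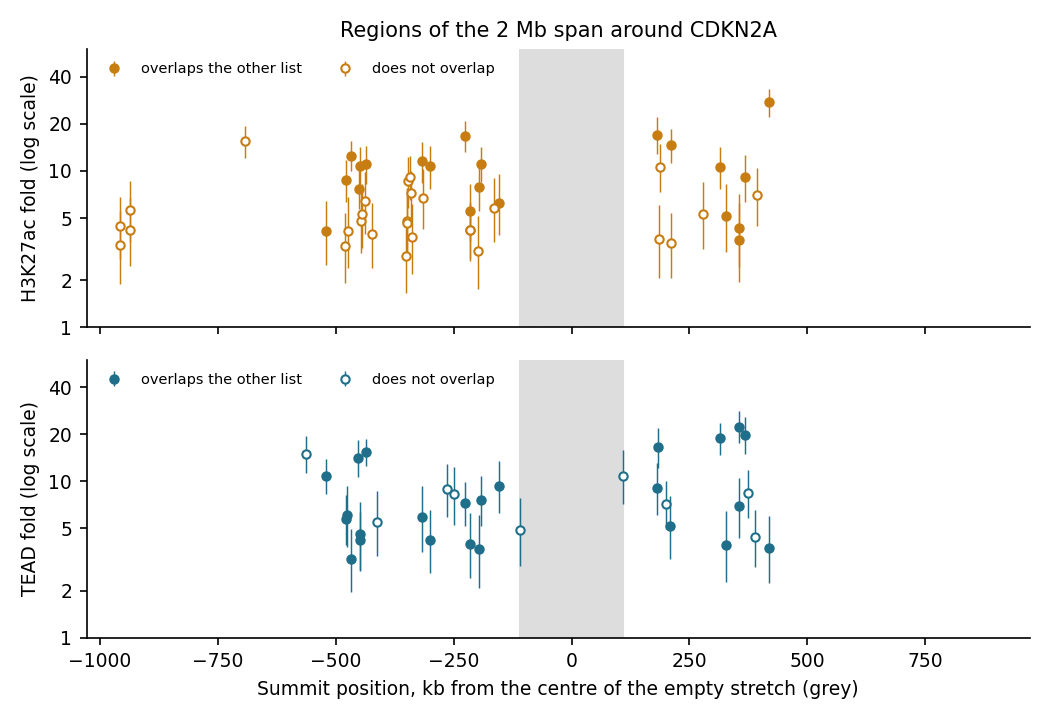
Fold at the summit (log scale, with 95% counting intervals) of the 49 H3K27ac and 33 TEAD regions of the span, by distance in kb from the centre of the 217 kb stretch without a region (grey). Filled points overlap a region of the other list; points stand on both sides of the grey band and none in it.

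The side of the span towards the interferon genes and MTAP held more regions, and the side towards DMRTA1 had the higher median fold in both lists. The first had 36 H3K27ac regions with a median of 5.73-fold and 20 TEAD regions with a median of 6.01-fold. The second had 13 of each, with medians of 6.98-fold and 8.41-fold. No interval was computed for these medians, and those of the second side rest on few regions. All regions of the second side lay between 22136841 and 22449157, and the rest of the span held none. The counts were not set against the length that the regions of each side covered. The share of TEAD regions that overlapped H3K27ac was 15 of 20 on the first side (75%) and 9 of 13 on the second (69.2%). Over all TEAD regions it was 68.4%. Of the H3K27ac regions, 14 of 36 (38.9%) and 8 of 13 (61.5%) overlapped TEAD, against 41.7% over all. No interval was computed for the shares of the sides, which rest on few regions. Mean recovered background beside the H3K27ac summits was 3.29 reads on the first side (SD 0.900 over regions) and 2.62 reads on the second (SD 0.643). Fold is a ratio to that background, and its part in the difference of medians was not tested.

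The strongest H3K27ac region of the span was chr9:22446283-22449157, at 27.4-fold (22.2 to 33.5, 93 reads). It is the last region before a stretch of 1.13 Mb without any, and the TEAD region it held, chr9:22446790-22447548, was weak at 3.77-fold. Next came the 17.0-fold region beside the empty stretch, then chr9:21801608-21804135 at 16.8-fold with a TEAD region of 7.29-fold. chr9:21334580-21336052 reached 15.5-fold with no TEAD region within 129760 bp. Of the remaining 6 in the first 10, chr9:22237103-22239150 stood at 14.6-fold and the others between 10.8-fold and 12.5-fold, and each of the 6 held TEAD. The first 4 lie on both sides of the empty stretch, 2 on each.

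TEAD was strongest on the DMRTA1 side. The first 4 regions were chr9:22383574-22384186 at 22.4-fold (17.5 to 28.4, 68 reads), chr9:22395598-22396349 at 19.8-fold, chr9:22342379-22343054 at 18.9-fold and chr9:22211615-22212149 at 16.5-fold. All 4 overlapped H3K27ac. The strongest did so only at a 299 bp H3K27ac region of 3.61-fold, so fold of the mark and of the factor did not go together there. On the other side the highest values were 15.4-fold at chr9:21591422-21592113, which was marked, and 15.0-fold at chr9:21465813-21466352, which lay 40812 bp from the nearest H3K27ac region. The other 4 of the first 10 lay between 9.33-fold and 14.1-fold.

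Some acetylated stretches of the span had no TEAD region. A run of 7 H3K27ac regions between chr9:21677299-21689839, joined here into 1 domain of 12.5 kb, reached 9.13-fold and had none. By contrast, the domain chr9:21575600-21592814, of 6 H3K27ac regions, held 4 TEAD summits. H3K27ac regions of the span that lay within 12.5 kb of each other formed 20 domains. None of them was large, the term used for domains whose summed fold times width is above the point where the ranked curve reaches slope 1. Over all chromosomes 3.82% of domains were large, so none among 20 is close to that share. The highest, chr9:21546960-21560778, ranked 1735 of 22587.

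Across the whole arm, the overlap of factor and mark was close to that elsewhere. Of the 493 TEAD regions on 9p, 341 overlapped the mark by at least 1 bp and are called marked, a share of 69.2% (95% Wilson interval 65.0 to 73.1). The share over all TEAD regions was 68.4%, and on 9q it was 67.5% (826 of 1223). The difference between the arms was 1.63 percentage points, with a Newcombe interval from -3.30 to 6.37 that includes 0. In the span 24 of 33 were marked (72.7%, 55.8 to 84.9). From the other direction, 315 of 782 H3K27ac regions held TEAD (40.3%, 36.9 to 43.8), against 41.7% on 9q and 41.7% over all, a difference between the arms of -1.45 points (-5.55 to 2.71). In the span 22 of 49 did (44.9%). All intervals cover counting error only, and neighbouring regions are not independent, so they are too narrow as a guide to new cultures.

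Most H3K27ac regions with TEAD held a single one. On 9p, 268 held 1, 42 held 2 and 5 held 3 or more. The last share was 0.639%, against 1.81% (32 regions) on 9q and 1.27% over all, and the difference between the arms was -1.17 points (Newcombe interval -1.99 to -0.174), which rests on 5 regions of 9p. The share with 2 ran the other way, at 5.37% on 9p, 3.96% on 9q and 4.60% over all (difference 1.41 points, -0.300 to 3.39). The share with 1 was 34.3%, 36.0% and 35.8%. Within marked regions the 2 summits were seldom at the same place: 279 TEAD summits lay inside an H3K27ac region, at a median of 406 bp from its summit, with 420 bp on 9q and 400 bp over all. A TEAD summit beside rather than on the H3K27ac summit is thus shared by both arms. Of the 152 unmarked TEAD regions, 45 lay within 5 kb of an H3K27ac region (29.6%, against 24.4% on 9q and 29.9% over all). A further 34 lay more than 50 kb away (22.4%, against 29.0% on 9q and 22.9% over all), so both shares were close to those over all regions.

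Wide and strong H3K27ac regions held TEAD more often. By quartile of width on 9p the share rose from 16.3% through 28.2% and 42.6% to 74.0%, and the 9q values were 17.0%, 28.6%, 47.6% and 73.8%. Width enters the chance of an overlap, so this order is a description. H3K27ac regions with TEAD had a median of 8.64-fold and those without 5.29-fold. The values were 9.68 and 5.27 on 9q and 9.63 and 5.31 over all, so this contrast is shared. For TEAD the share marked was 67.7%, 66.7%, 61.0% and 81.3% by quartile of TEAD fold, highest in the strongest quartile. The difference between the strongest and the weakest quartile was 13.6 points (2.68 to 24.0). On 9q the shares were 71.9%, 59.2%, 65.2% and 73.9%, and the interval of the same difference, -5.07 to 8.97 points, included 0. Whether the arms differ in this was not tested.

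Regions were sparser on 9p than on 9q. From the first to the last region of each arm, 47.2 Mb and 75.6 Mb, H3K27ac had 16.6 regions per Mb on 9p (exact Poisson interval 15.4 to 17.8) and 23.4 on 9q (22.3 to 24.5), a ratio of 0.708 (0.650 to 0.771). TEAD had 10.4 per Mb (9.54 to 11.4) and 16.2 (15.3 to 17.1), a ratio of 0.645 (0.580 to 0.717). With the stretches over 1 Mb left out of the length, the ratios rose to 0.817 and 0.743. Set beside the 23 whole chromosomes, 9q was itself dense: 19 had fewer H3K27ac regions per Mb and 20 fewer TEAD regions. Fewer than 9p were found on 7 for H3K27ac and 4 for TEAD. The length of a whole chromosome takes in its centromere. Which bases of the build could be mapped was not used here.

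Median fold on 9p was slightly lower than on 9q for H3K27ac and slightly higher for TEAD, with intervals that overlap. Median H3K27ac fold was 6.08 on 9p (order-statistic interval 5.86 to 6.54), 6.49 on 9q (6.28 to 6.80) and 6.54 over all, and only 1 of 23 chromosomes had a lower median than 9p. Median TEAD fold was 7.46 on 9p (7.05 to 8.07), 7.05 on 9q (6.81 to 7.36) and 7.14 over all, with 22 of 23 chromosomes below 9p. For TEAD the regions next to the centromere contributed: the 77 beyond 38 Mb had a median of 9.56 (7.35 to 11.6), and without them the value was 7.30. Of those 77, 59.7% were marked (48.6 to 70.0), against 70.9% (66.4 to 75.1) of the 416 before 38 Mb, a difference of -11.2 points (-23.1 to 0.026).

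**Figure D3:**
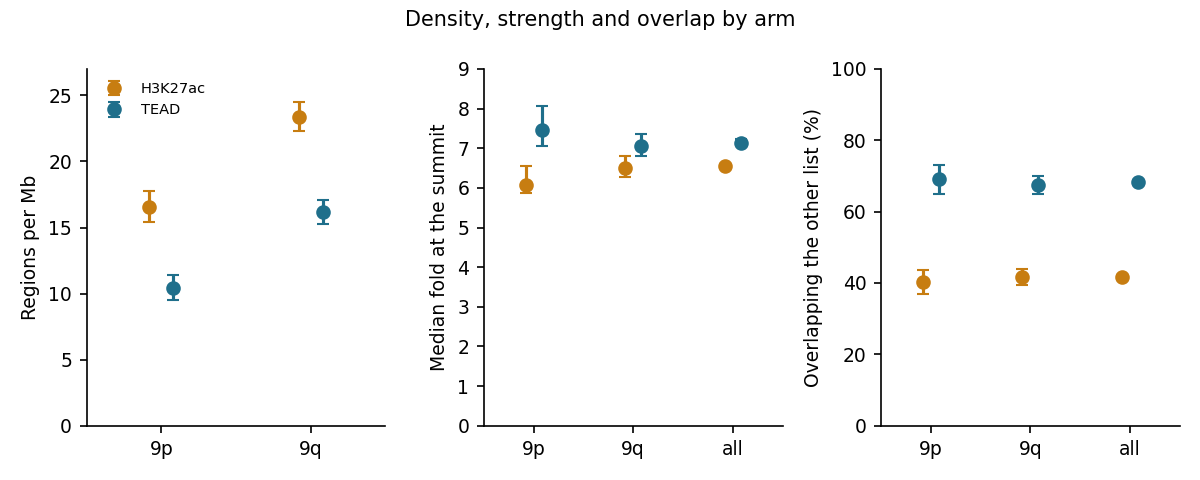
Regions per Mb on 9p and 9q for H3K27ac and TEAD, with 95% counting intervals. Median fold at the summit and percent of regions overlapping the other list are shown on 9p, 9q and over all regions. Density is lower on 9p in both lists (16.6 against 23.4 and 10.4 against 16.2 per Mb), while the overlap shares differ by less than their intervals.

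The longest stretch of 9p without a region of either list ran from chr9:8923689-12630837, 3.71 Mb, and ranked 32 among all stretches. It was followed by chr9:23686610-25102080 (1.42 Mb), chr9:29822907-31045929 (1.22 Mb) and chr9:22449158-23582232 (1.13 Mb), the last of which begins inside the CDKN2A span. Together the 4 stretches over 1 Mb took up 7.48 Mb, or 15.8% of the arm between its first and last region. On 9q only 1 stretch was that long, chr9:104296689-106561214 (2.26 Mb), 3.0% of the arm. This contrast was smaller in the H3K27ac list alone, with 5 stretches over 1 Mb on 9p (8.84 Mb) and 4 on 9q (5.90 Mb), than in the TEAD list alone, with 4 (8.12 Mb) and 1 (2.27 Mb). Over all chromosomes 276 stretches (0.447%) passed 1 Mb. The centromere of chromosome 9 was not counted to either arm: nothing was listed for 18.3 Mb between the last region of 9p, an H3K27ac region of 4.10-fold that ends at 47264089, and the first of 9q, a TEAD region of 5.85-fold that starts at 65537065.

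Both edges of the longest stretch carried TEAD. Below it, the last region was a TEAD region without the mark, chr9:8923158-8923688, at 12.6-fold (9.61 to 16.4, 56 reads), 57917 bp from the nearest H3K27ac region. The 2 TEAD regions before it were weaker, at 4.42-fold and 4.44-fold, and lay in H3K27ac regions of 21.8-fold (chr9:8856395-8858770) and 7.79-fold (chr9:8864147-8865240). Between those 2 stood an H3K27ac region of 2.87-fold without TEAD, chr9:8863264-8863695. Above the stretch, chr9:12630838-12633385 reached 10.3-fold and held TEAD regions of 5.51-fold and 12.0-fold, the second of which reached into the next H3K27ac region, chr9:12633636-12634072, at 4.88-fold. Further on came an H3K27ac region of 5.06-fold without TEAD, chr9:12708175-12708528, and an unmarked TEAD region of 5.80-fold, chr9:12774860-12775128, 31 bp from the mark. The stretch thus had a lone TEAD region at one edge and an acetylated region with TEAD at the other.

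The recovered background had nearly the same mean on both arms. It is the number of reads that the peak caller took as the local expectation at a summit, and its mean over H3K27ac summits was 3.14 reads on 9p and 3.15 on 9q, a ratio of 0.996 (95% interval from the spread over regions, 0.964 to 1.03). Over TEAD summits the ratio was 1.01 (0.970 to 1.05). The control library that entered this number is not given in the sources, and the value is not a measure of copy number. Along the arm the bin from 23 to 24 Mb, just above the CDKN2A span, had a mean of 1.65 reads over its 5 H3K27ac regions, and 40% of them were at the lowest value in the list, 1.45 reads. The bin from 25 to 26 Mb had the same share of its 5 regions there, and the bin from 41 to 42 Mb had 36.4% of 11. Beyond 38 Mb 13.7% of H3K27ac regions were at that value, against 1.22% before and 6.33% over all H3K27ac regions. The highest background of the arm, 15.0 reads, stood at chr9:44991968-44993321, where H3K27ac reached only 4.13-fold.

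**Figure D4:**
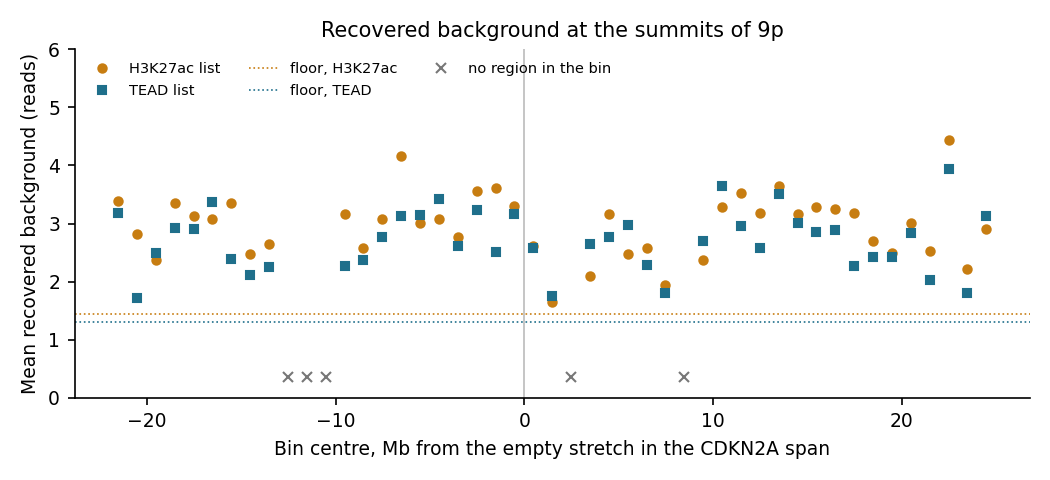
Mean recovered background in reads at the summits of H3K27ac (circles) and TEAD (squares) regions per 1 Mb bin of 9p, by distance in Mb from the centre of the 217 kb stretch in the CDKN2A span; dotted lines are the lowest value of each list and crosses mark the 5 bins without a region. The bin from 23 to 24 Mb is the lowest for H3K27ac at 1.65 reads.

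The strongest TEAD regions of 9p lay outside the CDKN2A span and were all marked. First was chr9:34989174-34989966 at 70.9-fold (61.8 to 80.9, 217 reads), which ranked 76 of 35241. It was followed by chr9:4136964-4137774 at 64.2-fold and chr9:45450026-45451466 at 52.8-fold. The other 7 of the first 10 lay between 41.0-fold and 47.9-fold, and all 10 overlapped H3K27ac. On 9q the first 3 were chr9:130286458-130287327 at 78.9-fold, chr9:114812550-114813456 at 67.8-fold and chr9:114803707-114804944 at 64.3-fold, and these also overlapped H3K27ac. In the strongest quartile of each arm the share marked was 81.3% on 9p and 73.9% on 9q. Over all TEAD regions, of any fold, it was 68.4%, and the strongest quartile over all chromosomes was not taken. The strongest 1% of the TEAD list held 3 regions of 9p (0.609%, 0.207 to 1.77) and 13 of 9q (1.06%), a difference of -0.454 points (-1.30 to 0.791).

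The strongest unmarked TEAD regions of 9p were weaker by comparison. They were chr9:27154820-27155398 at 21.9-fold, chr9:2810041-2810782 at 21.2-fold, chr9:28289677-28290232 at 20.8-fold, chr9:13974844-13975431 at 19.7-fold and chr9:6938427-6938906 at 19.3-fold. Their distances to the mark varied widely: the second lay 55 bp from an H3K27ac region and the fourth 120590 bp. The highest unmarked TEAD region reached 55.9-fold on 9q and 91.8-fold over all regions, so unmarked regions were not weak everywhere. Unmarked means only that the H3K27ac list had no peak there at the depth sequenced.

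H3K27ac on 9p was highest at chr9:35922004-35927380, with 34.3-fold (28.6 to 40.8, 126 reads), which ranked 147 of 52667. It held the TEAD region chr9:35924162-35925064 of 42.6-fold, the ninth of the TEAD list on 9p. Of the first 10, 2 had no TEAD region: chr9:45739144-45740190 at 31.4-fold, whose nearest TEAD region was 52299 bp away and whose background was at the lowest value, and chr9:36572208-36574456 at 28.8-fold, with TEAD 1176 bp away. chr9:35726215-35733358 at 28.2-fold held 3. The other 6 stood between 27.7-fold and 33.9-fold. On 9q the highest values were 50.4-fold at chr9:131900556-131906804, 48.6-fold at chr9:132234409-132254513 and 40.8-fold at chr9:123635504-123640187. The strongest 1% of the H3K27ac list held 7 regions of 9p (0.895%, 0.434 to 1.84) and 27 of 9q (1.53%), a difference of -0.634 points (-1.46 to 0.421).

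Large acetylated domains were about as common on 9p as elsewhere. Of 307 domains 13 were large (4.23%, 2.49 to 7.11), against 34 of 713 on 9q (4.77%) and 3.82% over all. The first was chr9:33099605-33181947, 82.3 kb, with 26 H3K27ac and 15 TEAD regions, at rank 113. It contains one of the 3 widest H3K27ac regions of the arm, chr9:33157951-33168461 (10511 bp); the others were chr9:4289011-4300779 (11769 bp) and chr9:19109586-19120211 (10626 bp). The next domains were chr9:16184863-16268136 at rank 116, chr9:37903408-37970448 at rank 133 and chr9:4108461-4156066 at rank 158, which holds the 64.2-fold TEAD region. TEAD regions were counted to a domain by their summit, gaps between its H3K27ac regions included. On that count each of the 13 held at least 1 TEAD region, with a median of 5. The same was true of the 34 large domains of 9q, also with a median of 5. Together the large domains held 74 of the TEAD regions of 9p (15.0%), against 199 on 9q (16.3%). These counts were not made over all chromosomes. Large domains of 9p had a median span of 47.6 kb, against 2.36 kb over all its domains. Size enters the chance of holding a TEAD summit, so these counts are a description. None of the 13 lay in the CDKN2A span, whose domains were too few for this to differ from the share over all.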

How the data were processed

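The H3K27ac and TEAD peak lists were used, each from 1 library, and no file of the input library. MACS2, Bowtie2 2.4.5, fastp and the build hg19 are listed per the submitters' processing notes. Their roles and parameters, the threshold and the control are not given in the sources. The authors deposited for each peak its start, end and summit (other columns, in bp), a score that was not used, the −log10 q and −log10 p at the summit, and the fold (a ratio to local background). The lowest deposited −log10 q was 2.05 (H3K27ac) and 2.03 (TEAD). Only chromosomes 1 to 22 and X were kept, so chromosome Y and any other sequence were left out, and positions count from 1.

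Summit reads k and background b were recovered by search over whole k, so that the fold is (k + 1)/(b + 1) and p is the Poisson probability above k. All regions met this within 0.002 of the −log10 p. The median was 24 reads in both lists, which sets the precision of a fold. Library totals are not given in the sources. H3K27ac regions were joined over gaps of up to 12.5 kb. Intervals are 95% (Wilson, exact Poisson, Newcombe, order statistics). Overlap and recovery code was tested on simulated data. Python 3.11.15, numpy 2.4.6, pandas 2.3.3, scipy 1.17.1 and matplotlib 3.10.9 were used.

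Regions named are the 10 of highest fold per list in the span and on the arm, the 3 nearest each side of the longest stretch, the 3 strongest on 9q, the 5 strongest unmarked TEAD and the 3 widest H3K27ac regions. Others were chosen after their values were seen. The members and lists were chosen with earlier results of these data known. Alternatives changed the overlap, the threshold, the edges of the arm and the denominator. Promoters came from RefSeq (GRCh38.p14); all 4 genes sought were matched.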

Additional observations from a re-analysis of the deposited data

How the results depend on the processing

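Of 38 alternatives, 32 planned and 6 added after seeing the data, 29 left the result within its counting interval or, for counts and lengths, within 1.5 times, 9 moved it and 0 reversed it. Leaving stretches over 1 Mb out of the length moved the 9p to 9q density ratio to 0.817 for H3K27ac and 0.743 for TEAD, still below 1. The marked share of 9p TEAD regions was 56.4% when 50% of the TEAD region had to overlap, and 56.6% with the TEAD summit inside; the share of H3K27ac regions holding a TEAD summit was 30.6%. These fell by construction, since each setting counts fewer overlaps of the same regions. With both lists at 5-fold or more the marked share was 61.4%, while the share of H3K27ac regions with TEAD was 41.6%; the cause was not tested. With −log10 q of at least 5 the median fold was 8.09 for TEAD and 6.98 for H3K27ac, since weak regions were removed. At 5-fold or more the span held 30 H3K27ac regions. The difference in marked share between the arms was 1.63 points and lay between 1.43 and 3.81 under the added settings, each with an interval that included 0. The longest stretch was 3707 to 3766 kb under all its settings. No paired analysis was possible because each antibody had 1 library. Depth limits the weak regions: a median of 24 reads at a summit gives a wide interval on each fold.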
